A study of Mus musculus with 6 samples.

Results

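Serine, one-carbon and transsulfuration metabolism was examined in whole-epididymis RNA-seq libraries of Ocln-KO and WT mice through 10 enzyme genes taken by symbol: Phgdh, Psat1, Psph, Shmt1, Shmt2, Cbs, Cth, Mat2a, Gnmt and Ftcd. All 10 were among the 57127 genes listed, and all 10 were abundant enough to be tested, as were 19691 genes in total. The study's text names Psph and Cbs among its shortlisted genes, which were chosen on these same libraries, so their direction is not independent evidence; whether the shortlist held others of the 10 was not used here. The WT group was 3 libraries from adult C57BL/6 males and the Ocln-KO group 3 libraries from adult Ocln-/- males labelled with the same strain, a knockout of the tight junction protein occludin that is not limited to a cell type, bred from heterozygous parents since the knockout males are sterile. Each library was labelled as whole epididymis and held 30646424 to 38870780 counts. The methods speak both of separate extraction from 3 pairs of mice and of pooled RNA, so n counts libraries. The p-values set the difference between genotypes against the spread between libraries, which may not be that between mice. Ocln, the targeted gene, had 85.9, 78.8 and 91.8 counts scaled to library size (CPM) in the WT libraries and 15.1, 15.3 and 14.9 in those of Ocln-KO, as the labels have it.

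Serine is made from the glycolytic intermediate 3-phosphoglycerate by PHGDH, PSAT1 and PSPH in turn. SHMT1 in the cytosol and SHMT2 in mitochondria then turn serine into glycine and pass a carbon to folate. In the methionine cycle MAT2A makes S-adenosylmethionine, the donor of methyl groups, and GNMT spends it on glycine. CBS joins serine to homocysteine and CTH splits the product to give cysteine, a building block of glutathione. FTCD links the breakdown of histidine to the folate pool. In the epididymis, epithelial cells secrete into and absorb from the fluid that bathes maturing sperm, and cysteine and glutathione are known to serve in defence against oxidation there.

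Per length, as counts scaled to library size and to the length of annotated exons (RPKM), Phgdh and Psat1 led the group in WT. Phgdh had 115 ± 6.06 RPKM and Psat1 112 ± 4.95 RPKM (SD, n = 3 each), and the ranges of the 2 genes overlapped. Shmt2 followed at 75.6 ± 7.31 RPKM, Cth at 38.2 ± 19.7 RPKM and Psph at 20.5 ± 2.65 RPKM, the ranges of Cth and Psph overlapping. Cbs had 11.6 ± 2.70 RPKM, Gnmt 7.46 ± 0.814 RPKM and Ftcd 4.71 ± 0.508 RPKM, each clear of its neighbours in this order. Mat2a and Shmt1 were lowest and overlapped, at 1.37 ± 0.266 and 1.15 ± 0.309 RPKM. The mitochondrial Shmt2 thus exceeded the cytosolic Shmt1 in each library of either genotype. In Ocln-KO the means ran from 93.4 RPKM for Phgdh to 1.11 RPKM for Ftcd and for Mat2a.

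Psph, Cbs, Gnmt and Ftcd fell in Ocln-KO, to between 23.5% and 38.3% of the WT mean, and none of the 10 was called higher. The test was edgeR's quasi-likelihood F test between genotypes; p-values adjusted over all tested genes by Benjamini-Hochberg gave the false discovery rate (FDR), and a gene was called at an FDR under 0.05. The 4 called lower of 10 stand beside 5.04% of all tested genes called lower. The 10 were chosen with earlier results of these data known, so these counts are not independent evidence. Over all genes 992 were called lower and 770 higher, or 674 and 1175 where libraries were scaled by their totals alone, a setting in which the same number of enzymes, 4, was called. The 0 called higher, where 7 of the 10 had an unadjusted p under 0.05 and all 7 were lower, stand beside 3.91% called higher; limma-voom and DESeq2 also called 0 higher. All 4 were under 0.5-fold as well, the fold threshold of the study's methods, which 1.7% of tested genes passed on the lower side. The log2 fold change was below 0 in 9 of the 10 (49.1% of all tested genes), and its median was -0.66 against 0.01 over all tested genes. In 7 of the 10 the lowest WT value exceeded the highest Ocln-KO value, as in 19.4% of all tested genes. The reverse held in 0 of the 10 and in 16.9% of tested genes. Among the 8 genes other than Psph and Cbs, 2 were called, 5 had an unadjusted p under 0.05 and the median log2 fold change was -0.41. Beside these counts, 5723 of all 19691 tested genes had an unadjusted p under 0.05, in either direction.

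**Figure D1:**
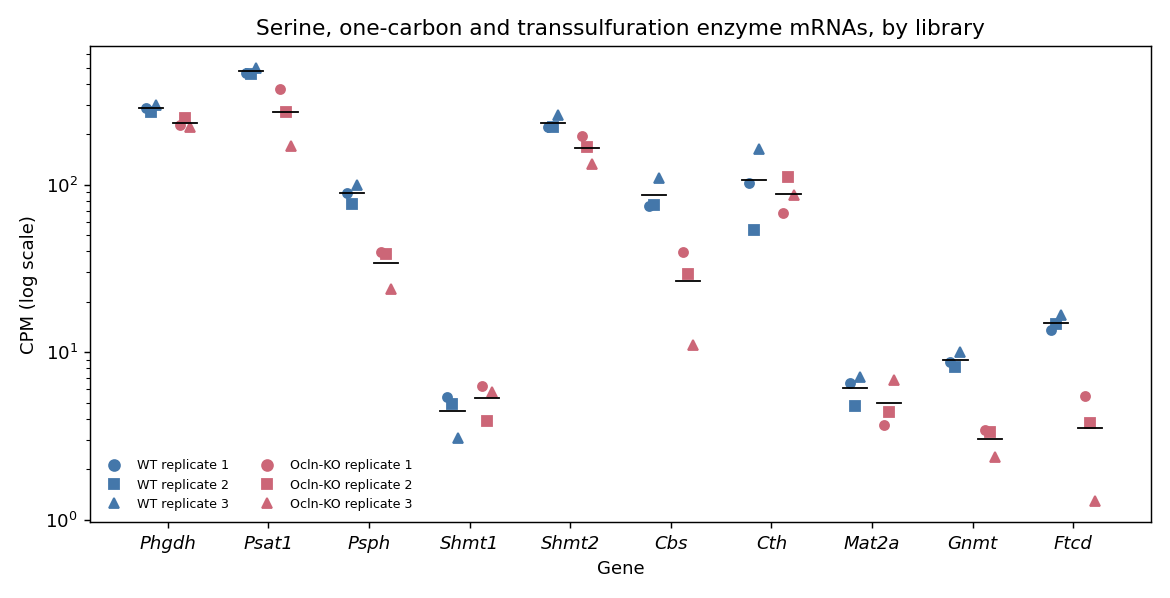
Level of each of the 10 enzyme mRNAs in each library, in CPM (counts scaled to library size, log axis). Blue points are WT libraries, red points Ocln-KO libraries, with 1 marker shape per replicate and black lines at the means. For Phgdh, Psat1, Psph, Shmt2, Cbs, Gnmt and Ftcd the blue points are all above the red points, and the triangle of Ocln-KO replicate 3 is the lowest.

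The RefSeq promoters of the 4 genes that fell are shown as their 150 bases before the annotated start (GRCm38.p6, 5′ to 3′ on the gene's own strand) so that their starts can be compared; capitals mark CG dinucleotides.
Psph (chr5:129787254-129787403, minus strand): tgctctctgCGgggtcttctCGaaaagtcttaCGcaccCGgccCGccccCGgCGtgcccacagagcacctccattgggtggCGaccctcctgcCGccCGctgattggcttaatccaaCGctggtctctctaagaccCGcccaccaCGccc
Cbs (chr17:31637206-31637355, minus strand): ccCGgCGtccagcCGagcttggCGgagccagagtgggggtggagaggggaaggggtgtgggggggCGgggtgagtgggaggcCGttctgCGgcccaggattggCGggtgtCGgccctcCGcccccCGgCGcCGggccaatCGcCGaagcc
Gnmt (chr17:46729166-46729315, minus strand): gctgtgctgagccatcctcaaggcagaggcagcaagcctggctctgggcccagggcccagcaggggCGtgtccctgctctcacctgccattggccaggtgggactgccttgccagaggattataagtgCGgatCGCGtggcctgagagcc
Ftcd (chr10:76575498-76575647, plus strand): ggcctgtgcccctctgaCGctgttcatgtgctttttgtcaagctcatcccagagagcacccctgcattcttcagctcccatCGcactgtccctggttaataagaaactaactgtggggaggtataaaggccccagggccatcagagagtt
These starts differ widely in CG density. In the whole window of 250 bases before to 50 after the start, Psph held 28 CG dinucleotides and Cbs 22, Gnmt 11 and Ftcd 3, where the median of all 32851 windows was 7. Ftcd lay above 23.3% of all windows by this count and Psph above 85.8%. The genes that fell were thus found on both CG-rich and CG-poor promoters, and Phgdh and Mat2a, which were not called, held 11 and 34. The letters TGATGNAA, of the type of element that ATF4 dimers bind, were searched on both strands. They were in 0 of the 10 windows, which cover 9 of the 10 genes (Cth had no window and Psat1 had 2), and in 3.97% of all windows. With so few windows, 0 of 10 cannot be told apart from that share.

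Serine synthesis is taken first. Phgdh encodes 3-phosphoglycerate dehydrogenase, the first enzyme (chromosome 3, 98313170 to 98339990; GENCODE M21 on GRCm38, as for the positions that follow). It had 289, 271 and 301 CPM in replicates 1, 2 and 3 of WT, and 227, 249 and 221 CPM in those of Ocln-KO. The groups did not overlap, and Ocln-KO replicate 2 came closest to WT. Its log2 fold change was -0.30 (standard error 0.09, FDR = 0.0735), and it was called in 0 of 14 alternative settings. Its counts are uncertain, since 89.5% of its transcript lies in near-identical copies elsewhere in the annotation, and how reads with more than 1 alignment were handled is not given in the sources used here. The 10 copies listed in the table together held between 919 and 1900 counts per library.

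Psat1 encodes phosphoserine aminotransferase, the second enzyme (chromosome 19, 15904678 to 15947337). It had 467, 461 and 500 CPM in the WT libraries and 371, 272 and 171 CPM in the Ocln-KO libraries. The WT libraries stayed within 1.08-fold of each other, while the Ocln-KO libraries spread 2.17-fold, all of them under WT. The log2 fold change was -0.81 (standard error 0.24, FDR = 0.0759). Psat1 passed with DESeq2 (FDR = 0.00553), without the low-count filter (0.0294) and without Ocln-KO replicate 1 or 3 (0.0256 and 0.041), and the FDR ran up to 0.204 over the other settings.

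Psph encodes phosphoserine phosphatase, which releases free serine (chromosome 5, 129765558 to 129787449). It had 89.4, 77 and 99.9 CPM in the WT libraries against 39.6, 38.6 and 23.7 CPM in those of Ocln-KO. The Ocln-KO libraries were all far below the lowest WT library, WT replicate 2. Psph thus fell by 1.39 on the log2 scale, with a 95% interval from -1.85 to -0.92 and an FDR of 0.0146. Of its exon bases 10.4% overlap those of Cct6a, a chaperonin subunit gene on the other strand; without a stated strand setting, reads of this stretch cannot be told apart, and Cct6a itself had a log2 fold change of -0.12 (FDR = 0.361).

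The 3 steps were also compared by ratio. Within each library, where scaling plays no part, the log2 ratio of Psph to Phgdh counts was -1.69, -1.82 and -1.59 in WT and -2.52, -2.69 and -3.22 in Ocln-KO. The ratios of the genotypes did not overlap, and the Ocln-KO mean was lower, with a difference of -1.11. The copies of Phgdh limit this ratio. The log2 ratio of Psph to Psat1 was -2.39, -2.58 and -2.32 in WT and -3.23, -2.82 and -2.85 in Ocln-KO, again without overlap, a mean difference of -0.54. Each of these gave p = 0.1 by a two-sided exact permutation test, the smallest p that 3 libraries against 3 allow (adjusted p = 0.133 over the 4 ratios tested), so neither could pass.

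**Figure D2:**
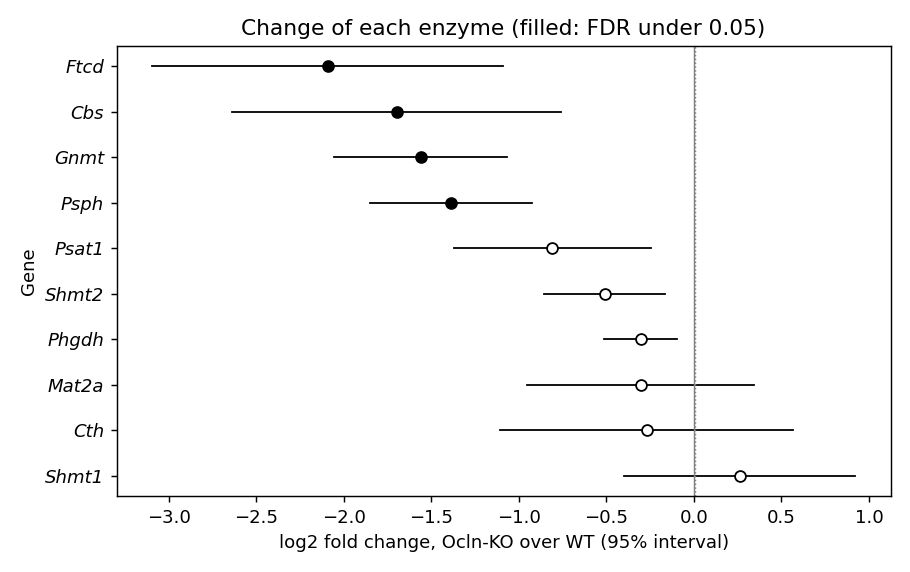
Log2 fold change of each enzyme mRNA in Ocln-KO over WT with its 95% interval from the edgeR fit; filled points have an FDR under 0.05 and the dotted line is the median of all tested genes, 0.01. Ftcd, Cbs, Gnmt and Psph are filled, at -2.09, -1.70, -1.56 and -1.39, and the intervals of Mat2a, Cth and Shmt1 cross 0.

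At the step from serine to glycine, neither the mitochondrial nor the cytosolic enzyme gene was called. Shmt2 (chromosome 10, 127517123 to 127522444) had 221, 222 and 261 CPM in the WT libraries against 196, 167 and 132 CPM in those of Ocln-KO. The groups did not overlap, and the mean in Ocln-KO was 70.2% of WT. The log2 fold change of -0.51 (standard error 0.15, FDR = 0.0711) was not called, but passed with DESeq2 (0.0209), without the low-count filter (0.0419) and without Ocln-KO replicate 1 (0.0391). Shmt1 (chromosome 11, 60788104 to 60811718) had 5.37, 4.89 and 3.1 CPM in the WT libraries against 6.3, 3.89 and 5.83 CPM in those of Ocln-KO, so that the genotypes overlapped. Its log2 fold change was 0.26, with a 95% interval from -0.40 to 0.92 (FDR = 0.589), so a change of either sign and of this size was within the error; 4.74% of its exon bases overlap Smcr8 on the other strand. The log2 ratio of Shmt1 to Shmt2 was -5.36, -5.50 and -6.39 in WT and -4.95, -5.42 and -4.50 in Ocln-KO. These ratios overlapped, and the mean difference of 0.79 gave p = 0.2 in the exact permutation test.

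In transsulfuration the first enzyme gene fell and the second did not pass. Cbs encodes cystathionine beta-synthase (chromosome 17, 31608894 to 31637238). It had 74.4, 75.3 and 110 CPM in the WT libraries against 39.6, 29.5 and 11 CPM in those of Ocln-KO. The Ocln-KO libraries spread 3.58-fold and all lay under WT. Cbs fell by 1.70 on the log2 scale (95% interval from -2.64 to -0.76, FDR = 0.0441); 6.54% of its transcript is shared with transcripts of other genes. Cth encodes cystathionine gamma-lyase (chromosome 3, 157894248 to 157925077) and had 102, 53.8 and 164 CPM in WT against 67.9, 111 and 86.9 CPM in Ocln-KO. Cth varied 3.04-fold among the WT libraries alone, the widest WT spread of the 10 genes, and the Ocln-KO values fell inside that range. Its log2 fold change was -0.27 (95% interval from -1.11 to 0.56, FDR = 0.665), and without WT replicate 3 it was 0.18 (FDR = 0.784).

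The log2 ratio of Cbs to Cth was -0.46, 0.48 and -0.58 in WT and -0.78, -1.91 and -2.98 in Ocln-KO. The counts of the 2 genes were thus of like size in WT, while in Ocln-KO replicate 3 Cbs was far below Cth. The genotypes did not overlap, and the mean difference of -1.70 gave p = 0.1 in the exact permutation test (adjusted p = 0.133), again the smallest possible value. The closest pair of libraries was WT replicate 3 and Ocln-KO replicate 1.

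**Figure D3:**
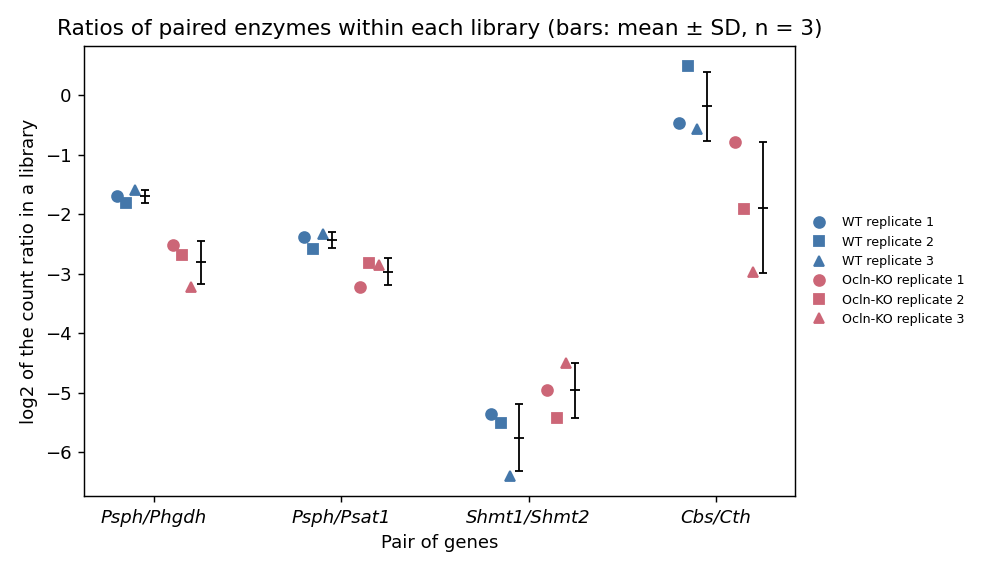
Log2 ratio of the counts of 2 enzyme genes within each library, for the 4 pairs named on the horizontal axis. Points are libraries (blue WT, red Ocln-KO), and bars the mean ± SD of 3. Psph/Phgdh, Psph/Psat1 and Cbs/Cth are lower in each Ocln-KO library than in each WT library, with the narrowest margin for Cbs/Cth, and Shmt1/Shmt2 overlaps.

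In the methionine cycle the gene that spends S-adenosylmethionine fell, and the gene that makes it did not pass. Gnmt encodes glycine N-methyltransferase (chromosome 17, 46725664 to 46729168). It had 8.77, 8.15 and 10.1 CPM in the WT libraries against 3.43, 3.36 and 2.37 CPM in those of Ocln-KO. These were 278 to 374 counts against 80 to 110 counts, tight within each genotype. Gnmt fell by 1.56 on the log2 scale (95% interval from -2.05 to -1.07), with the lowest FDR of the 10 genes, 0.0134. Mat2a encodes the catalytic subunit of the widely expressed methionine adenosyltransferase (chromosome 6, 72432799 to 72439558). It had 6.58, 4.81 and 7.08 CPM in the WT libraries against 3.68, 4.43 and 6.87 CPM in those of Ocln-KO, so the genotypes overlapped, and here Ocln-KO replicate 3 was the highest Ocln-KO library. The log2 fold change was -0.30 (95% interval from -0.95 to 0.35, FDR = 0.52). Its level is uncertain, since 34.3% of its transcript lies in 2 near-identical copies, which together held 244 to 402 counts per library against 118 to 263 for Mat2a itself, and 11.3% of its exon bases overlap Particl on the other strand.

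Ftcd, which encodes formimidoyltransferase cyclodeaminase, had the largest change of the 10 (chromosome 10, 76575648 to 76590338). It had 13.5, 14.8 and 16.7 CPM in the WT libraries against 5.49, 3.8 and 1.3 CPM in those of Ocln-KO, or 506, 506 and 622 counts against 176, 121 and 44. The WT libraries stayed within 1.24-fold, while the Ocln-KO libraries spread 4.21-fold. Ftcd fell by 2.09 on the log2 scale (95% interval from -3.10 to -1.09, FDR = 0.0319), and 1.1% of all tested genes had a lower log2 fold change. Of the 3 enzymes that act before it on histidine, 0 were called: the log2 fold changes of Hal, Uroc1 and Amdhd1 were 0.06, 1.44 and 0.28 (FDR = 0.934, 0.215 and 0.499). These 3 were chosen for mention after their values were seen.

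Which calls were made depended on single libraries. Without WT replicate 1 or WT replicate 3, 0 of the 10 genes were called, and 19 and 40 of all tested genes were called lower. In each of these fits 7 of the 10 had an unadjusted p under 0.05, beside 4366 of 20316 and 4323 of 20277 tested genes. Without WT replicate 2 or Ocln-KO replicate 2, 2 were called, Psph and Gnmt. Without Ocln-KO replicates 1 and 3 the number was 6 and 5. With the replicate number as a block, 0 were called (FDR 0.074 for Psph, 0.0742 for Gnmt, 0.0908 for Ftcd and 0.114 for Cbs). In that fit 7 of the 10 had an unadjusted p under 0.05, beside 4807 of all 19691 tested genes. DESeq2 and the fit without a low-count filter called 6, adding Psat1 and Shmt2. The direction of Psph, Cbs, Gnmt and Ftcd was lower in each of the 14 alternatives. This is no added evidence, since all 14 refit the same counts. With no overlap between the genotypes, leaving out a library could not reverse the direction of these genes.

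**Figure D4:**
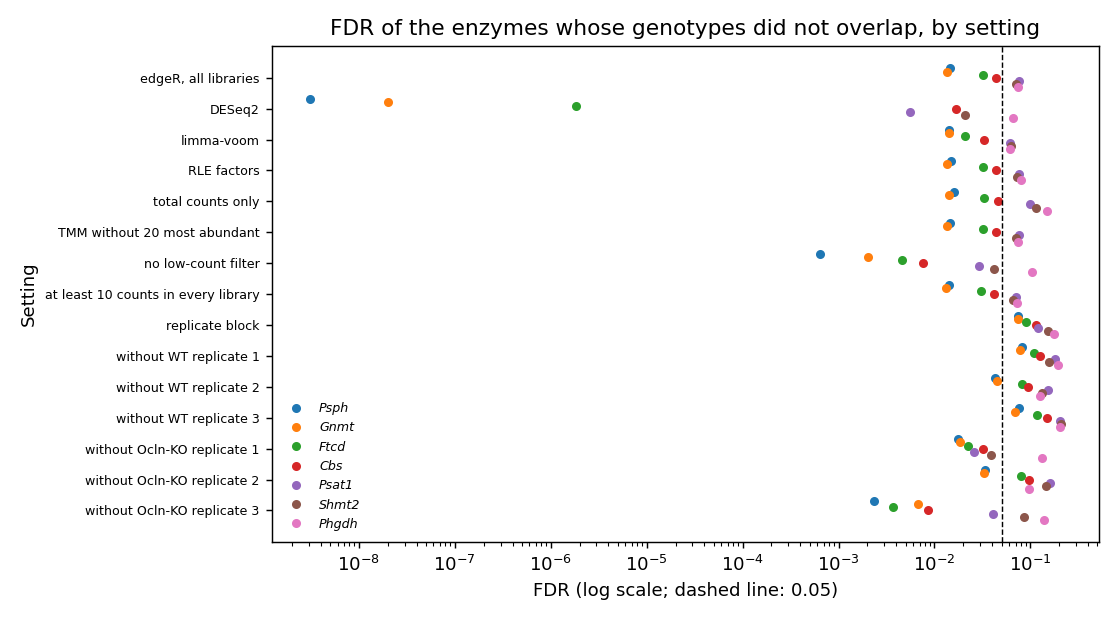
FDR (log axis) of the 7 enzyme genes whose genotypes did not overlap, in the edgeR fit of all libraries and in 14 alternative settings; the dashed line marks 0.05. Psph and Gnmt lie left of the line in 11 of the 14 alternatives, Ftcd and Cbs in 9, Psat1 in 4, Shmt2 in 3 and Phgdh in 0.

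The Ocln-KO libraries were not alike. Ocln-KO replicate 3 stood apart on the first principal component of all genes, at -86.3 against -17.7 and -29.1 (37 to 52.8 in WT). It was the lowest Ocln-KO library in all 7 genes whose genotypes did not overlap, where it was lowest in 50.9% of the tested genes with the same separation. Ocln-KO replicate 1 was the highest in 6 of the 7, against 39.9%. Without Ocln-KO replicate 3 the log2 fold changes of Ftcd, Cbs, Gnmt and Psph were -1.70, -1.33, -1.41 and -1.18, each with an FDR under 0.05.

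Markers of cell types and regions moved alongside. In bulk tissue fewer cells of a type and less RNA per cell cannot be told apart. The 6 clear cell markers together had 84.6 to 106 CPM in WT and 42.2 to 53 CPM in Ocln-KO. Of these, Atp6v1b1, Atp6v0d2, Atp6v0a4 and Foxi1 were called lower, Atp6v1g3 was not called (FDR = 0.0725), and Slc4a9 was near 0. The 6 lymphocyte markers had 12.4 to 16.7 and 32.6 to 50.9 CPM, a sum carried by Ptprc, a gene of leukocytes in general, at 10.8 to 15.1 and 29.2 to 46.3 CPM and called higher. The T cell genes Cd3e and Cd3g had 0.205 to 2.07 CPM and were not called (FDR = 0.123 and 0.183), with the B cell genes Cd79a and Ms4a1 near 0. The 7 macrophage markers had 142 to 164 and 169 to 267 CPM, with 0 called. The 5 smooth muscle markers had 1152 to 1387 and 1568 to 2082 CPM, with Myh11 called higher. The 5 basal cell markers (224 to 228 and 228 to 273 CPM) and the 6 sperm markers (189 to 253 and 64.2 to 270 CPM) had Krt14 called higher and 0 called, with the lowest sperm sum in Ocln-KO replicate 3. The adipocyte and blood markers were sparse, at 5.51 to 9.64 and 13.5 to 38.5 CPM in WT and 0.0592 to 3.65 and 4.85 to 9.64 CPM in Ocln-KO, with 0 called in each, and Adipoq, Plin1, Cfd and Cidec were at 0 in Ocln-KO replicate 3. Except for basal cells and sperm, these summed levels did not overlap between the genotypes. Beside these, 5.04% of all tested genes were called lower and 3.91% higher. As single genes, 19.4% separated with WT higher and 16.9% with Ocln-KO higher.

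Of the 9 principal cell markers, Crisp1, Lcn5 and Adam7, genes of the epididymal epithelium, were abundant, while Adam28, Cst11 and Rnase10 were under the test's count filter and Lcn8 and Cst8 were at 2.3 CPM or less, so that 5 of the 9 were low in both genotypes and the markers bear out the labelled organ in part. Their summed level overlapped, at 25375 to 29956 CPM in WT and 17766 to 31950 CPM in Ocln-KO. Gpx5, a secreted glutathione peroxidase of the caput, had 54.4, 172 and 26.3 CPM in the WT libraries against 256, 7264 and 10039 CPM in those of Ocln-KO, and was the 1 gene of its list called (higher). Crisp1, a sperm-binding secreted protein, had 12488 to 16769 CPM in the WT libraries against 9957, 9160 and 4439 CPM in those of Ocln-KO. For these genes too Ocln-KO replicate 3 was at an extreme. Whether each library labelled as whole epididymis held the same share of each region was not tested. The part of cell type and of region in the values of the enzyme genes was not tested either.

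Around the 10 enzymes, 86 further genes of the same metabolism were examined in 5 lists, also chosen with earlier results of these data known. Of the 86 genes, 78 were tested. Of these 78, 13 were called lower and 1 higher, where 5.04% and 3.91% of all tested genes were, and the median log2 fold change was -0.17. The genotypes separated with WT higher in 30 and with Ocln-KO higher in 5 of the 78, beside 19.4% and 16.9% of all tested genes. No gene of these lists reached a 2-fold change at an FDR under 0.05. By edgeR the number called lower was 0 without WT replicate 1 or 3 (24 of the list genes had an unadjusted p under 0.05 in each), 3 without WT replicate 2 and 4 without Ocln-KO replicate 2, and 8 with total counts only. Without WT replicate 1 or 3, 4366 of 20316 and 4323 of 20277 tested genes had an unadjusted p under 0.05.

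**Figure D5:**
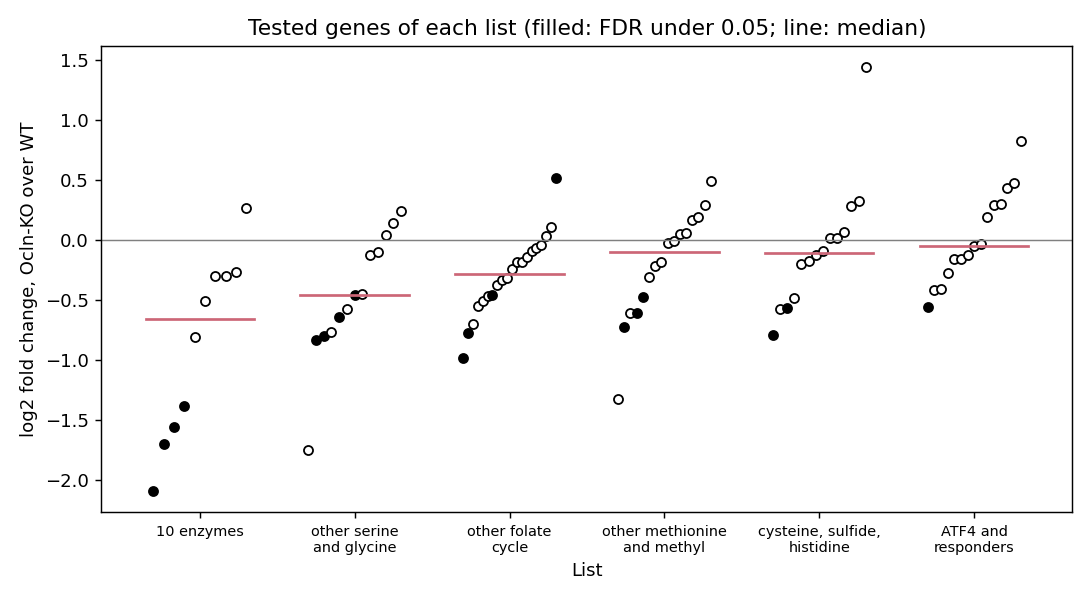
Log2 fold change in Ocln-KO over WT of the tested genes of each list, ordered within a list; filled points have an FDR under 0.05 and red lines are medians. The medians run from -0.66 for the 10 enzymes to -0.05 for ATF4 and its responders.

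Among other serine and glycine genes, 4 of 13 were called lower and 0 higher (5.04% and 3.91% of all tested genes), with a median of -0.46. Slc1a4, a carrier of serine and other neutral amino acids, had 34.1 to 38.2 CPM in the WT libraries and 18.1 to 22.3 CPM in those of Ocln-KO, and fell by 0.84 on the log2 scale (FDR = 0.0121). Grhpr, the glyoxylate and hydroxypyruvate reductase, fell by 0.80 (FDR = 0.0125). Gcsh and Amt, which encode the H and T proteins of the mitochondrial glycine cleavage system, fell by 0.64 and 0.46 (FDR = 0.0314 and 0.0291). All 4 were without overlap between the genotypes, but they were named for their FDR, which favours such genes. Of the 13 tested genes, 6 had WT fully higher, 1 had Ocln-KO fully higher and 6 overlapped. Of all tested genes, 19.4% separated with WT higher and 16.9% with Ocln-KO higher.

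In the folate cycle, 3 of 20 genes were called lower and 1 higher (5.04% and 3.91% of all tested genes), with a median of -0.28. Slc46a1, the proton-coupled folate transporter, had 50 to 56.8 CPM in the WT libraries and 23.7 to 31.1 CPM in those of Ocln-KO, and fell by 0.99 on the log2 scale (FDR = 0.0113). Mthfd2l and Mthfd1, a mitochondrial and a cytosolic folate dehydrogenase gene, fell by 0.78 and 0.46 (FDR = 0.0267 and 0.0331).

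In the methionine cycle and methyl transfer, 3 of 16 genes were called lower and 0 higher (5.04% and 3.91% of all tested genes), with a median of -0.10. These were Hnmt, a histamine methyltransferase gene (log2 fold change -0.72, FDR = 0.0286), Sardh, sarcosine dehydrogenase, which turns sarcosine, the product of GNMT, back into glycine (-0.61, FDR = 0.0473), and Ahcy, S-adenosylhomocysteine hydrolase (-0.47, FDR = 0.0331). Among cysteine, sulfide and histidine genes, 2 of 14 were called lower and 0 higher (5.04% and 3.91% of all tested genes), with a median of -0.11. Slc7a11, the cystine importer, had 359 to 624 CPM in WT and 254 to 317 CPM in Ocln-KO and fell by 0.79 (FDR = 0.0465). Suox, sulfite oxidase, fell by 0.57 (FDR = 0.0233).

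ATF4 is a transcription factor known to raise serine synthesis genes under amino acid shortage. Of 15 genes, Atf4 and responders, 1 was called lower and 0 higher, with a median of -0.05. These counts are near the shares of all tested genes, 5.04% called lower and 3.91% called higher. Sesn2, a sestrin gene, had 45.2 to 57.2 CPM in WT and 30.4 to 36.2 CPM in Ocln-KO, a log2 fold change of -0.56 (FDR = 0.0359). Atf4 mRNA itself, added after its value was seen, had a log2 fold change of -0.04 (FDR = 0.816). The ATF4 protein was not examined here, and its activity cannot be read from the mRNA level. A part of ATF4 was not tested.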

How the data were processed

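RNA of whole epididymis from 3 WT and 3 Ocln-KO libraries was freed of rRNA and sequenced from directional libraries; an extraction note in the sample records names another tissue, prefrontal cortex. Adaptor and low-quality reads were removed, the rest aligned to GRCm38 with HISAT2 2.0.4 (version per the submitters' processing notes) and assigned with HTSeq, whose mode and strand setting are not given in the sources used here. The values the authors deposited are raw counts per gene symbol, without normalization. The table holds 27 date-like names in place of symbols (0.145% of counts). Other data types of the study were not analysed here.

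Total counts ran from 30646424 to 38870780 per library, so that 3 counts equal 0.0802 to 0.0942 CPM, counting error only. In R 4.3.3, genes were kept with filterByExpr (19691), scaled by TMM factors and tested with edgeR 4.0.16 (glmQLFit, glmQLFTest; common dispersion 0.0577) with Benjamini-Hochberg adjustment over all tested genes. Intervals are 95%, from the standard error (log2 fold change over the root of F). DESeq2 1.42.0, which the study's methods name, and limma 3.58.1 (voom) served as alternatives, with other scalings, filters, a replicate block and each library left out. On simulated data with 200 genes changed 4-fold, 19320 genes were tested, and edgeR recovered 87% of the 200 and called 22 unchanged genes. In this single draw these 22 made up a share of its calls above the FDR threshold of 0.05. An FDR is an expected share, and only these 200 genes were changed, unlike in the data. The draw therefore cannot settle how secure calls close to that threshold are, such as Cbs (FDR = 0.0441). Ratios within a library used counts plus 0.5. RPKM used TMM-scaled library sizes and the union of GENCODE M21 exons; copies are blastn 2.17.0 matches of at least 95% identity over 100 bases between annotated transcripts. Promoters are RefSeq windows.

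Named are Ocln, the 10 enzymes and, in each list, up to 6 called genes of largest change; some items are not reported here. The enzymes, lists and tests were chosen with earlier results of these data known.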

Additional observations from a re-analysis of the deposited data

How the results depend on the processing

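With the replicate number as a block, 31 genes were called lower and 10 higher in place of 992 and 770. Of the 10 enzymes 0 were called in place of 4, and of the list genes 0 in either direction. An unadjusted p under 0.05 was found in 7 of the enzymes, 29 of the list genes and 4807 of all 19691 tested genes in that fit. By FDR and fold change 30 genes were lower in place of 335. The methods speak of pairs of mice, but neither they nor the labels tie a replicate number to a pair. The deviations of same-numbered libraries correlated at -0.05, -0.03 and -0.00 over genes, and those of differently numbered libraries at -0.08 to 0.13. This does not show whether libraries were paired in another order. DESeq2 called 1637 genes lower and 1528 higher, 555 by FDR and fold change on the lower side, and 2 list genes higher in place of 1. With total counts only, 1175 genes were called higher, 8 list genes lower and 2 higher, and 0.09 rather than 0.01 was the median log2 fold change over tested genes.

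With each library left out in turn, genes called lower ranged from 19 to 944 and higher from 4 to 782, genes lower by FDR and fold change from 19 to 389, enzymes called lower from 0 to 6, and list genes called lower from 0 to 12 and higher from 0 to 3. Ocln ranged from -2.56 to -2.44. The within-library log2 ratio differences ranged from -1.25 to -0.90 for Psph/Phgdh, from -0.61 to -0.40 for Psph/Psat1, from 0.47 to 1.02 for Shmt1/Shmt2 and from -2.26 to -1.16 for Cbs/Cth, with no change of sign. For Psph/Phgdh, Psph/Psat1 and Cbs/Cth, whose ratios did not overlap between the genotypes, leaving out a library could not change the sign. The log2 fold change of Cth ranged from -0.59 to 0.18, the last without WT replicate 3. The cause of these shifts was not tested. With 3 libraries a group, the exact tests cannot pass, and the 10 enzymes' calls rest on the spread borrowed across genes.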
